A study of Mus musculus with 7 samples.

Results

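The genes described here build the lysosome and the autophagosome in mouse liver. They are 38 named genes, 26 of the lysosome (hydrolases, membrane proteins and their regulator Tfeb) and 12 of autophagy. Members were taken by exact gene symbol from the array's platform annotation, in which each of the 38 was read by 1 probe, out of 16468 named genes and 22218 features in all. Total liver RNA was profiled on 2-colour arrays in 3 mice that carry a Zfp90 transgene (tg, 1 female and 2 males) and in 4 wild-type littermates (WT, 1 female and 3 males). Zfp90 encodes a zinc finger protein. On every array the animal's RNA was set against 1 pool of liver RNA from 4 WT mice of both sexes. Age, strain background, the promoter that drives the transgene and the number of founder lines are not given in the sources used here.

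Lysosomes are acidic organelles in which proteases, glycosidases and lipases break down material that arrives by endocytosis or by autophagy. In autophagy a membrane grows around cytoplasm, carries lipid-linked proteins of the Atg8 family, closes, and fuses with lysosomes. In liver this route supplies amino acids in fasting and breaks down lipid droplets and organelles, and resident macrophages (Kupffer cells) are rich in lysosomes. The transcription factor TFEB binds the CLEAR element in promoters of many lysosomal genes and is held in the cytoplasm by the kinase complex mTORC1.

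The core of that element, TCACGTG on either strand, was searched for in RefSeq promoter windows of 300 bases (250 before and 50 after an annotated start, build GRCm38.p6), and the stretches shown here are those in which it was found. Windows were given for 31 of the 38 members. The core was in a window of 10 of these 31 (32.3%), 8 of 22 lysosomal and 2 of 9 autophagy genes, against 1160 of 27025 genes (4.29%). As the element is one of lysosomal gene promoters, a higher share among such genes is no test of it. A match describes letters in a window and no binding. Each stretch has 30 bases on the gene's strand, with the match nearest the start in capitals. In Atg7, Ctsa and Lgmn it lies inside the gene's span, at an annotated start other than the outermost (Atg7 spans chr6:114643127-114860604). Where both strands match, the capitals run over 1 palindrome that holds both.
Atg3, chr16:45158747-45158776, plus strand: gagagtcgagTCACGTGAggccttaggtgg
Atg7, chr6:114670952-114670981, plus strand: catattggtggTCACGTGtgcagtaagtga
Ctsa, chr2:164833750-164833779, plus strand: gagcaaactgTCACGTGAtgcagatgctca
Ctsd, chr7:142387907-142387936, minus strand: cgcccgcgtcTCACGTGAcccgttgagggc
Gaa, chr11:119267811-119267840, plus strand: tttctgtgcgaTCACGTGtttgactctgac
Gla, chrX:134601181-134601210, minus strand: gagatctcggTCACGTGAgcaactctcggc
Glb1, chr9:114401018-114401047, plus strand: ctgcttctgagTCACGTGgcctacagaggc
Lgmn, chr12:102439124-102439153, minus strand: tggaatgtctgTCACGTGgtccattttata
Mcoln1, chr8:3500463-3500492, plus strand: ggcgccccgcTCACGTGAccgcggcgcatg

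Lamp1, the tenth of these genes, held 4 matches close together, and its 250 bases before the start are shown whole (chr8:13158911-13159160, plus strand) with the matches in capitals. Lipa (chr19:34527475-34527724, minus strand) and Gabarapl1 (chr6:129532942-129533191, plus strand) are shown beside it because their expression differences come first below. Their windows held 0 matches, so no letters are in capitals.
Lamp1: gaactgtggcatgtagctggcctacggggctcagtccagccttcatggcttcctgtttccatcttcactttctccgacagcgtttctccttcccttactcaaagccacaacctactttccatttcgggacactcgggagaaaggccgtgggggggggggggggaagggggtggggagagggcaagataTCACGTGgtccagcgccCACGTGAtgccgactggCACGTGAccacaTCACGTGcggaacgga
Lipa: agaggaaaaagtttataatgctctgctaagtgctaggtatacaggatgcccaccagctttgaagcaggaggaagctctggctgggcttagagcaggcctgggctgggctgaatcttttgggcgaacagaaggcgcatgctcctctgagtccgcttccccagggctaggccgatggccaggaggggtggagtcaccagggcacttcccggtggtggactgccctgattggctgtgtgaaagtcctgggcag
Gabarapl1: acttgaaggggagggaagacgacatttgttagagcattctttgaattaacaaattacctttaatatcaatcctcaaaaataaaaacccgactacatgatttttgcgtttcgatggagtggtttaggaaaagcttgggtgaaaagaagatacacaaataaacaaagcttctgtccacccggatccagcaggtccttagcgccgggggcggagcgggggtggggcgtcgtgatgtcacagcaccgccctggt

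Values below are log2 ratios of an animal to the pool, and differences are log2 differences between groups of such ratios with their standard error (SE). A ratio holds no absolute level, so levels of different genes cannot be compared. Array medians lay between -0.01 and 0.03 over all features. Precision is limited by having 7 arrays, and no filter on low values was applied, so all 38 members were tested. The labels put the animal's RNA in Cy5 and the pool in Cy3, and the Y-linked gene Kdm5d lay at -2.54 and -3.22 on the arrays of the tg and the WT female against 0.14 to 0.66 in the 5 males, so a positive value was read as animal over pool. Over all probes 3 of 21 pairs of arrays correlated below -0.3, the lowest at -0.497 (tg female 1 and WT male 4). With every sign turned, each difference would change sign and keep its p. Zfp90 itself read 0.34, 0.58 and 0.45 in the tg animals, against -0.15, -0.29 and -0.11 in the WT males and 0.37 in the WT female (exact permutation test over 35 splits, one-sided p = 0.0571, where 0.0286 is the smallest possible). The WT female thus read like the tg animals in the targeted gene. Differences of all 38 members are therefore given with that female and, as the comparison of the 5 males, without it. For other genes the males alone are given in part. Leaving it out gives the same fitted genotype difference as the males alone, since the tg female then has no female to be set against.

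Transcripts of the lysosome and of autophagy did not separate tg from WT livers. In limma, fitted to the 7 arrays with a term each for genotype and sex, 0 of 26 lysosomal and 0 of 12 autophagy genes passed an adjusted p of 0.05 (Benjamini-Hochberg over 22218 features), where 0 of all features (0.0%) passed. At an unadjusted p under 0.05 stood 2 members (5.26%), Lipa and Gabarapl1, against 1536 features (6.91%). Both had negative differences, as did 3.1% of features at that level, and 0 members had positive ones, against 3.82% of features. The smallest adjusted p was 0.718 among the autophagy genes and 0.72 among the lysosomal genes. The lysosomal genes divided evenly, 13 above and 13 below 0, and their median difference was -0.01. Of the autophagy genes 3 were positive and 9 negative, with a median of -0.06, beside a median of -0.01 over all features and 11498 of 22218 on the negative side. The largest difference in size among members was 0.53, and 95% intervals stayed within 0.5 of 0 for 9 lysosomal and 8 autophagy genes. For the other 21 members the data allow a larger difference.

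**Figure D1:**
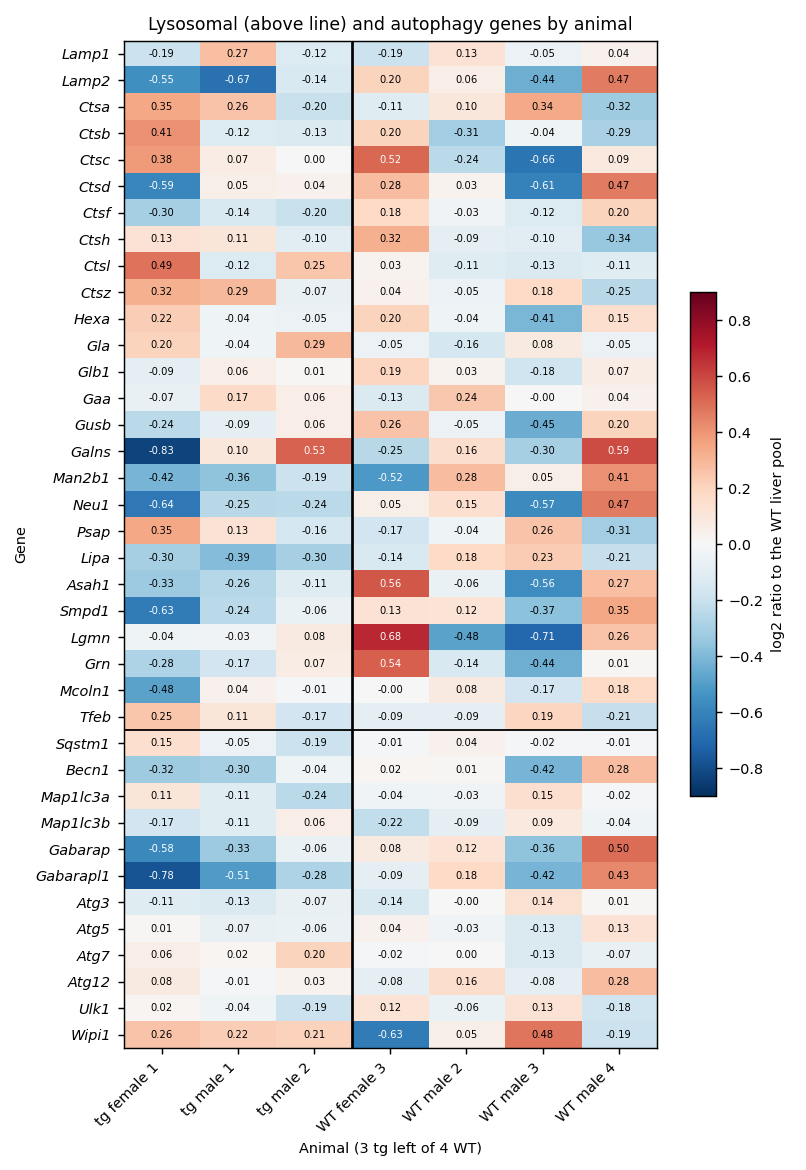
Log2 ratio to the WT liver pool (colour and printed value) of 26 lysosomal genes, above the horizontal line, and 12 autophagy genes, below it, in 3 tg animals, left of the vertical line, and 4 WT animals. Values run from -0.83 to 0.68, and WT male 3 and WT male 4 have opposite colours in genes such as Neu1, Ctsd and Gabarap.

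Animals of the 2 genotypes did not overlap in 3 members (7.89%), against 6.01% of all features. These were Lipa and Ctsf, with the tg animals below (2 members, where 2.84% of features lay that way), and Atg7, with the tg animals above (1 member, where 3.17% did). Lipa, the acid lipase that hydrolyses cholesteryl esters and triglycerides in lysosomes, read -0.30, -0.39 and -0.30 in the tg animals, against -0.14, 0.18, 0.23 and -0.21 in the WT animals. All 3 tg animals lay close together below the 4 WT animals, which spread on both sides of 0. The difference was -0.34 ± 0.13 SE (1.27-fold, 95% interval -0.65 to -0.03, adjusted p = 0.72), and -0.42 ± 0.16 SE in the males alone. Ctsf, a cysteine protease, read -0.30, -0.14 and -0.20 in the tg animals, against 0.18, -0.03, -0.12 and 0.20 in the WT animals, a difference of -0.27 ± 0.12 SE (-0.18 ± 0.13 SE in the males). The lowest WT animal stood just above the highest tg animal. Atg7, the enzyme that activates Atg12 and the Atg8 proteins for conjugation, read 0.06, 0.02 and 0.20 in the tg animals, against -0.02, 0.00, -0.13 and -0.07 in the WT animals, a difference of 0.15 ± 0.09 SE (0.17 ± 0.11 SE in the males). Its tg and WT values nearly touch at 0.

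**Figure D2:**
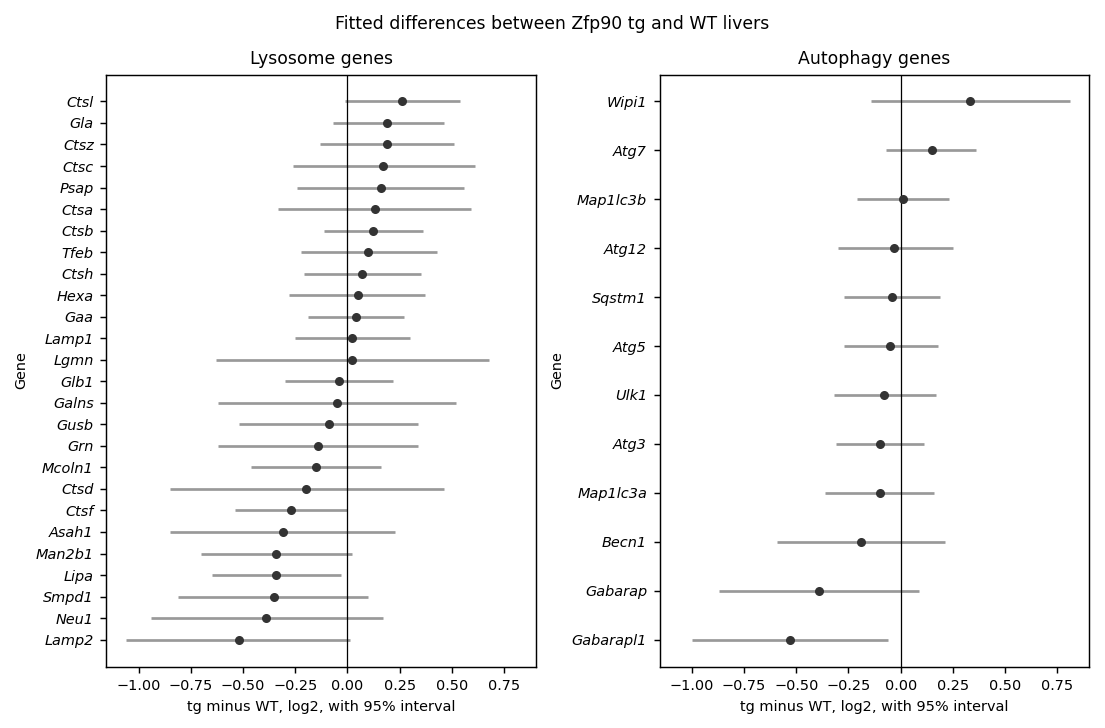
Fitted log2 difference, tg minus WT, of each gene with its 95% interval from limma, in the model with sex, genes of each panel sorted by difference. Only the intervals of Lipa (-0.65 to -0.03) and Gabarapl1 (-1.00 to -0.06) lie wholly below 0 without adjustment over features, and Ctsf reaches 0.00.

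Membrane proteins of the lysosome gave no common direction. Lamp1 and Lamp2 are the main glycoproteins of the lysosomal membrane, and Lamp2 also serves in chaperone-mediated autophagy. Lamp2 read -0.55, -0.67 and -0.14 in the tg animals, against 0.20, 0.06, -0.44 and 0.47 in the WT animals, a difference of -0.52 ± 0.23 SE (1.44-fold, adjusted p = 0.724). Its groups overlapped through WT male 3, and the WT range exceeded the tg range. Lamp1, by contrast, stood between -0.19 and 0.27 in all 7 animals, with a difference of 0.02 ± 0.12 SE. Mcoln1, the calcium channel whose opening activates TFEB, had a difference of -0.15 ± 0.13 SE, with -0.48 in the tg female and -0.17 to 0.18 in the other 6 animals. In the males alone the differences were -0.43 ± 0.28 SE for Lamp2, 0.03 ± 0.14 SE for Lamp1 and -0.01 ± 0.13 SE for Mcoln1.

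Lysosomal proteases were mostly on the positive side, 7 of 9, with a median difference of 0.12. Ctsl, a cysteine endopeptidase, read 0.49, -0.12 and 0.25 in the tg animals, against 0.03, -0.11, -0.13 and -0.11 in the WT animals, a difference of 0.26 ± 0.12 SE (1.20-fold, adjusted p = 0.725). The tg female and tg male 2 lay above every WT animal, and tg male 1 lay among the WT males. Among the other cysteine proteases, differences were 0.12 ± 0.10 SE for Ctsb, 0.17 ± 0.19 SE for Ctsc (which activates granule proteases), 0.07 ± 0.12 SE for Ctsh and 0.19 ± 0.14 SE for Ctsz. Legumain (Lgmn), which cleaves after asparagine and matures other cathepsins, differed by 0.02 ± 0.28 SE with a wide interval, -0.63 to 0.68. Its WT animals ran from -0.71 to 0.68, whereas the 3 tg animals lay between -0.04 and 0.08. Ctsa, the serine carboxypeptidase that also protects β-galactosidase and neuraminidase, differed by 0.13 ± 0.20 SE. Of the aspartic protease Ctsd, the tg animals read -0.59, 0.05 and 0.04, against 0.28, 0.03, -0.61 and 0.47 in the WT animals, so that 1 animal of each genotype stood far below the rest (difference -0.20 ± 0.28 SE). Among the males alone 7 of 9 proteases were again positive, with a median of 0.15. Ctsd (0.08 ± 0.29 SE) and Ctsa (-0.01 ± 0.23 SE) turned in sign there. Lgmn (0.33 ± 0.28 SE), Ctsc (0.30 ± 0.21 SE) and Ctsh (0.18 ± 0.13 SE) were further from 0 than with the females, whereas Ctsl (0.18 ± 0.13 SE), Ctsb (0.09 ± 0.12 SE) and Ctsz (0.15 ± 0.17 SE) were nearer to it.

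Glycosidases and the sulfatase Galns split 3 positive to 5 negative (median -0.04), and 6 positive to 2 negative in the males alone (median 0.06). Man2b1, the lysosomal α-mannosidase, read -0.42, -0.36 and -0.19 in the tg animals, against -0.52, 0.28, 0.05 and 0.41 in the WT animals, a difference of -0.34 ± 0.15 SE (adjusted p = 0.726). The overlap came from the WT female alone, and among males the difference was -0.52 ± 0.14 SE (adjusted p = 0.453, the smallest of any member there). Neu1, the sialidase that Ctsa protects, differed by -0.39 ± 0.24 SE, with -0.64, -0.25 and -0.24 in the tg animals, against 0.05, 0.15, -0.57 and 0.47 in the WT animals. Gla, the α-galactosidase, differed by 0.19 ± 0.11 SE. The remaining members were close to 0: Hexa, the α-subunit of β-hexosaminidase, at 0.05 ± 0.14 SE, Glb1, β-galactosidase, at -0.04 ± 0.11 SE, Gaa, the α-glucosidase that degrades lysosomal glycogen, at 0.04 ± 0.10 SE, Gusb, β-glucuronidase, at -0.09 ± 0.18 SE and Galns, a keratan sulfate sulfatase, at -0.05 ± 0.25 SE. Galns had the widest spread of all members, from -0.83 in the tg female to 0.59 in WT male 4. In the males alone Galns (0.17 ± 0.27 SE), Gusb (0.08 ± 0.20 SE) and Glb1 (0.06 ± 0.12 SE) were positive. The others there were Neu1 at -0.26 ± 0.29 SE, Gla at 0.17 ± 0.14 SE, Hexa at 0.06 ± 0.17 SE and Gaa at 0.03 ± 0.12 SE.

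The 4 genes of lysosomal lipid breakdown, Lipa among them, were 3 negative and 1 positive, with a median difference of -0.33 (-0.13 in the males alone). Apart from Lipa, none stood at an unadjusted p under 0.05 in limma. Smpd1, acid sphingomyelinase, read -0.63, -0.24 and -0.06 in the tg animals, against 0.13, 0.12, -0.37 and 0.35 in the WT animals (difference -0.35 ± 0.20 SE). Asah1, acid ceramidase, read -0.33, -0.26 and -0.11 in the tg animals, against 0.56, -0.06, -0.56 and 0.27 in the WT animals (difference -0.31 ± 0.23 SE). In both genes WT male 3 lay with or below the tg animals. Psap, the precursor of the saposins that present lipids to these hydrolases, differed the other way by 0.16 ± 0.17 SE. Grn, a secreted precursor processed in lysosomes, differed by -0.14 ± 0.21 SE. Tfeb, the regulator of the set, read 0.25, 0.11 and -0.17 in the tg animals, against -0.09, -0.09, 0.19 and -0.21 in the WT animals, a difference of 0.10 ± 0.14 SE. Without the females these differences were nearer to 0 or, in Grn, turned in sign. In the males alone they were -0.18 ± 0.21 SE for Smpd1, -0.07 ± 0.24 SE for Asah1, 0.01 ± 0.19 SE for Psap and 0.01 ± 0.16 SE for Tfeb, and Grn turned to 0.14 ± 0.16 SE. Members with the CLEAR core in their window had a median difference of 0.02 (-0.20 to 0.19, 6 positive and 4 negative), and those without it -0.08 (-0.53 to 0.33, 8 positive and 13 negative).

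Among autophagy genes, the Atg8 family was uneven, with 3 of 4 members negative and a median difference of -0.25. In the males alone 4 of 4 were negative (median -0.24). The small ubiquitin-like Atg8 proteins are joined to lipid on the growing membrane and hold cargo receptors there. Gabarapl1 read -0.78, -0.51 and -0.28 in the tg animals, against -0.09, 0.18, -0.42 and 0.43 in the WT animals, a difference of -0.53 ± 0.20 SE (1.44-fold, adjusted p = 0.718, and -0.46 ± 0.25 SE in the males). WT male 3, below tg male 2, kept the groups from separating. Gabarap ranked the animals of each genotype in the same order as Gabarapl1, at -0.58, -0.33 and -0.06 in the tg animals, against 0.08, 0.12, -0.36 and 0.50 in the WT animals (difference -0.39 ± 0.21 SE). The LC3 branch stood near 0, with differences of -0.10 ± 0.11 SE for Map1lc3a and 0.01 ± 0.09 SE for Map1lc3b. Map1lc3b had 95% bounds of -0.21 and 0.23, so differences beyond 1.17-fold upward or 0.864-fold downward lie outside them. Among males Gabarap differed by -0.28 ± 0.25 SE, Map1lc3a by -0.21 ± 0.11 SE and Map1lc3b by -0.01 ± 0.12 SE.

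**Figure D3:**
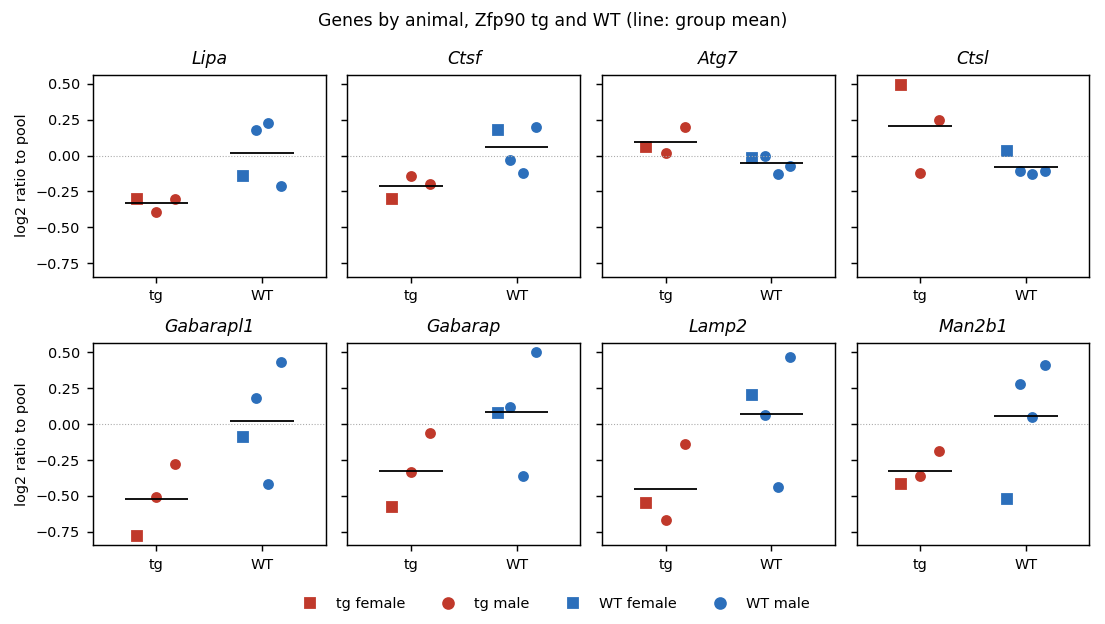
Log2 ratio to the pool of 8 genes, each point 1 animal, tg left of WT, squares females and circles males, with a line at the group mean. Lipa, Ctsf and Atg7 do not overlap between genotypes, and WT male 3 is the lowest WT point in Gabarapl1, Gabarap and Lamp2.

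The conjugation genes varied little between animals. Atg3, which passes Atg8 proteins to lipid, differed by -0.10 ± 0.09 SE, Atg5 by -0.05 ± 0.10 SE and Atg12, its conjugation partner, by -0.03 ± 0.12 SE, and all animals lay between -0.14 and 0.28 in these 3 genes. Ulk1, the kinase that starts autophagy, differed by -0.08 ± 0.10 SE. Sqstm1 (p62), a cargo receptor that is itself degraded by autophagy and is induced in oxidative stress, differed by -0.04 ± 0.10 SE, and its 4 WT animals lay between -0.02 and 0.04. Becn1, a subunit of the lipid kinase that marks the growing membrane, differed by -0.19 ± 0.17 SE. Wipi1, which binds that lipid, read 0.26, 0.22 and 0.21 in the tg animals, against -0.63, 0.05, 0.48 and -0.19 in the WT animals. The 3 tg values nearly coincided inside the WT range (difference 0.33 ± 0.20 SE, adjusted p = 0.788). The WT female, at -0.63, carried most of that value, which was 0.10 ± 0.20 SE in the males alone. The other differences in the males were -0.15 ± 0.11 SE for Atg3, -0.06 ± 0.12 SE for Atg5, -0.11 ± 0.13 SE for Atg12, -0.07 ± 0.13 SE for Ulk1, -0.13 ± 0.10 SE for Sqstm1 and -0.13 ± 0.21 SE for Becn1.

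In the 5 males alone, limma called 7 of 22218 features (0.0315%) and 0 of the 38 members. At an unadjusted p under 0.05 stood 2 members (5.26%), Man2b1 and Lipa, against 6.96% of features. Both were negative, against 3.04% of features, and 0 members were positive, against 3.92%. Differences were negative in 10 of 12 autophagy genes (median -0.12) and in 9 of 26 lysosomal genes (median 0.05), where the median over all features was -0.02. Tg and WT males did not overlap in 7 members (18.4%), against 22.6% of features. Tg males lay below all WT males in 6 members (15.8%), Lipa, Ctsf, Man2b1, Sqstm1, Map1lc3a and Atg3, against 11.4% of features, and above them in Atg7 only (2.63%), against 11.2%.

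The genotype difference was compared between females and males as an interaction, whose spread comes from the males since each genotype has 1 female. It was called in 16 features (0.072%) and in 0 members. Grn was the only member at an unadjusted p under 0.05 (2.63% of members, against 8.42% of features, of which 4.49% negative like Grn and 3.93% positive). It read -0.28 in the tg female and 0.54 in the WT female, and -0.17 and 0.07 in tg males against -0.14, -0.44 and 0.01 in WT males (interaction -0.96 ± 0.30 SE, adjusted p = 0.468). The females were about as far apart in Asah1 (tg minus WT female -0.89), Ctsd (-0.88) and, the other way, Wipi1 (0.89), and the interaction missed an unadjusted p of 0.05 in each of these 3.

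Cathepsins B, C and H and the hexosaminidase subunit Hexa read higher in both females than in every male, and none of them passed the test. Limma called 78 features between the sexes (0.351%) and 0 of the 38 members, whose smallest adjusted p was 0.21, for Ctsb. Ctsb read 0.41 and 0.20 in the females (tg and WT), and in the males -0.12 and -0.13 (tg) and -0.31, -0.04 and -0.29 (WT). Both females lay clear of the 5 males, with a difference of 0.47 ± 0.11 SE (1.38-fold). Ctsc read 0.38 and 0.52 in the females and -0.66 to 0.09 in the males (difference 0.58 ± 0.20 SE, adjusted p = 0.432). Ctsh read 0.13 and 0.32 in the females and -0.34 to 0.11 in the males (0.32 ± 0.13 SE, adjusted p = 0.528). Negative differences at an unadjusted p under 0.05 were those of Man2b1, at -0.42 and -0.52 in the females and -0.36 to 0.41 in the males (-0.48 ± 0.17 SE, adjusted p = 0.437), and Galns, at -0.83 and -0.25 in the females and -0.30 to 0.59 in the males (-0.75 ± 0.27 SE, adjusted p = 0.444). At that level stood 5 members (13.2%), against 9.23% of features, with 3 positive, where 3.65% of features were, and 2 negative, where 5.57% were. Females and males did not overlap in 8 members (21.1%), against 12.9% of features. Both females were above all males in Ctsb, Ctsc, Ctsh and Hexa (6.04% of features lay that way) and below them in Man2b1, Lamp1, Gaa and Map1lc3b (6.83% did).

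**Figure D4:**
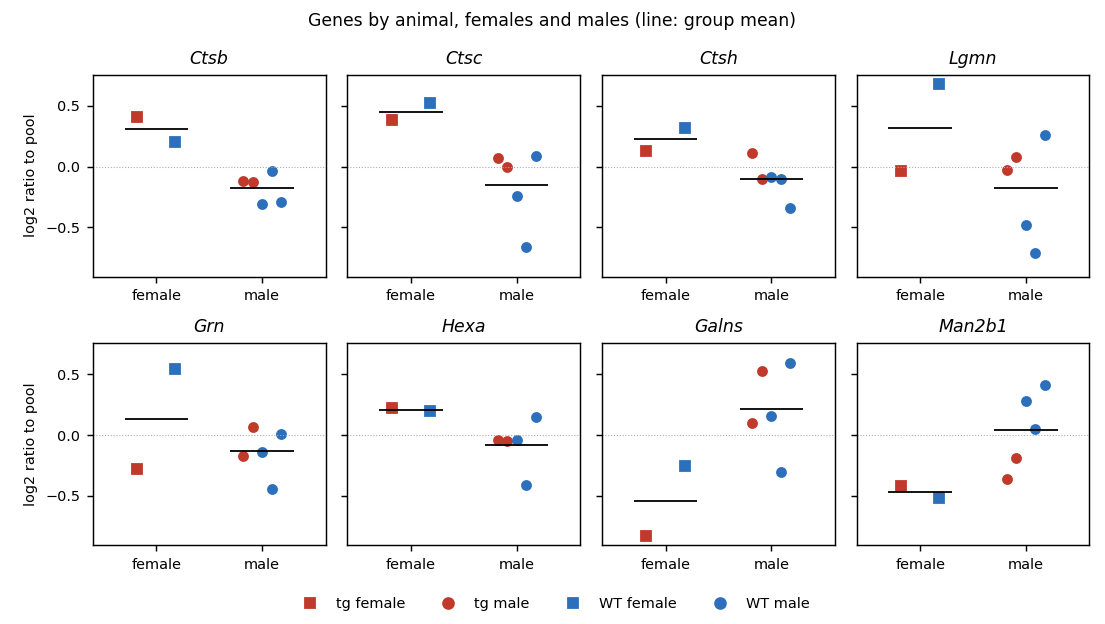
Log2 ratio to the pool of 8 lysosomal genes, each point 1 animal, females left of males, red tg and blue WT, with a line at the mean. Ctsb, Ctsc, Ctsh and Hexa lie higher in both females than in all males, while Lgmn and Grn are high in the WT female alone.

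Macrophage markers had mostly positive differences in both comparisons, and none passed the test in either. Of 27 Kupffer cell and macrophage markers 25 were measured, and 19 of them had a positive tg minus WT difference (median 0.42), with 8 at an unadjusted p under 0.05, all positive, and 0 called, where 6.91% of all features stood at that level. In the males alone, without the WT female, the median was 0.77, with 21 positive, 16 at an unadjusted p under 0.05 (6.96% of features) and 0 called. Their median ratio was 0.52, 0.38 and 0.15 in the tg animals (female, male 1, male 2), against 0.80 in the WT female and -0.58, -0.57 and -0.13 in WT males 2, 3 and 4. The female minus male median was 0.75, with 14 of 25 at an unadjusted p under 0.05, against 9.23% of features. The named markers were Cd163 (1.16 ± 0.19 SE), Aif1 (0.95 ± 0.19 SE), Hmox1 (0.93 ± 0.20 SE) and Marco (1.12 ± 0.33 SE), with adjusted p from 0.475 to 0.677 for tg against WT. In the males alone their differences were 1.18, 1.16, 1.16 and 1.65 in that order. The tg female minus the WT female was 1.10, 0.46, 0.37 and -0.13. The interaction of genotype and sex, with 1 female in each genotype, was negative in 24 of the 25 markers, against 10573 of 22218 features. The members did not follow the markers in one way. The WT female was highest in the markers. Of the 7 animals it was also highest in Lgmn (0.68), Asah1 (0.56), Grn (0.54), Ctsc (0.52), Ctsh (0.32), Gusb (0.26) and Glb1 (0.19). It was lowest in Wipi1 (-0.63), Man2b1 (-0.52), Map1lc3b (-0.22), Atg3 (-0.14) and Gaa (-0.13), leaving out ties. These members were listed after their values were seen. The tg animals, with marker medians above 0, read -0.04, -0.03 and 0.08 in Lgmn and -0.28, -0.17 and 0.07 in Grn. WT males 2, 3 and 4, with marker medians below 0, read -0.48, -0.71 and 0.26 in Lgmn and -0.14, -0.44 and 0.01 in Grn. In the males alone the differences were 0.33 ± 0.28 SE for Lgmn and 0.14 ± 0.16 SE for Grn, positive like the marker median there. The part of macrophages in these values was not tested, and in whole liver RNA fewer cells of a type and less RNA per cell cannot be told apart. Since ratios to a liver pool hold no level, the labelled tissue could not be checked by the level of its markers. Of 18 hepatocyte markers 16 were measured, with list medians of -0.16 to 0.03 in the 7 animals and a median difference of 0.03. That median lay between 9 positive and 7 negative differences. At an unadjusted p under 0.05 in limma stood 2 positive and 4 negative ones, against 3.82% and 3.1% of all features, and 0 were called.

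WT animals also differed among themselves in many members. The following contrast was chosen after the values were seen. WT male 4 stood over 0.5 above WT male 3 in 13 members and over 0.5 below it in 3, in all 42.1% of members, against 17.8% of all features. Ctsd differed most, at 0.47 in WT male 4 and -0.61 in WT male 3. Neu1 read 0.47 and -0.57, Lgmn 0.26 and -0.71, Lamp2 0.47 and -0.44, and Gabarap 0.50 and -0.36 in the same order. Ctsa (-0.32 and 0.34), Wipi1 (-0.19 and 0.48) and Psap (-0.31 and 0.26) ran the other way. The tg female read closer to WT male 3 than to WT male 4 in each of these genes except Lgmn, where it read -0.04. The range over all 7 animals exceeded 1 in 10 members (26.3%), against 10.4% of features. Without WT male 3 the fitted genotype differences became -0.69 for Lamp2, -0.60 for Neu1, -0.51 for Smpd1, -0.56 for Gabarap and -0.70 for Gabarapl1, with adjusted p of 0.181 to 0.183 in limma and still 0 members called. Without WT male 4 they moved the other way, to -0.39 for Lamp2, -0.25 for Neu1, -0.27 for Smpd1, -0.27 for Gabarap and -0.42 for Gabarapl1 (adjusted p = 0.999 in limma for each).

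Other genes of the pathway, from lists that hold none of the 38 members, gave 0 calls between genotypes, with all 7 animals and in the males alone. Their counts at an unadjusted p under 0.05 stand beside 6.91% of all features (3.82% positive, 3.1% negative), and beside 6.96% in the males. Of 18 subunits of the vacuolar proton pump, which acidifies lysosomes, 17 were measured, 13 of them negative and 4 positive, with a median of -0.14. At an unadjusted p under 0.05 stood 3, all negative: Atp6v1a (-0.62 ± 0.20 SE), Atp6ap2 (-0.26 ± 0.10 SE) and Atp6v1e1 (-0.38 ± 0.16 SE), with adjusted p of 0.704 to 0.721. Atp6v1a read -0.82, -0.53 and 0.12 in the tg animals, against 0.22, 0.18, 0.05 and 0.47 in the WT animals, so tg male 2 lay inside the WT range. The fourth named subunit, Atp6v1c1, differed by -0.37 ± 0.16 SE. Among males 12 of 17 subunits were negative with a median of -0.12, 1 stood at an unadjusted p under 0.05, and the 4 named subunits differed by -0.44 (Atp6v1a), -0.18 (Atp6ap2), -0.25 (Atp6v1e1) and -0.20 (Atp6v1c1). The pump's median was -0.25 in the tg female and 0.17 in WT male 4, the lowest and the highest of the 7 animals.

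**Figure D5:**
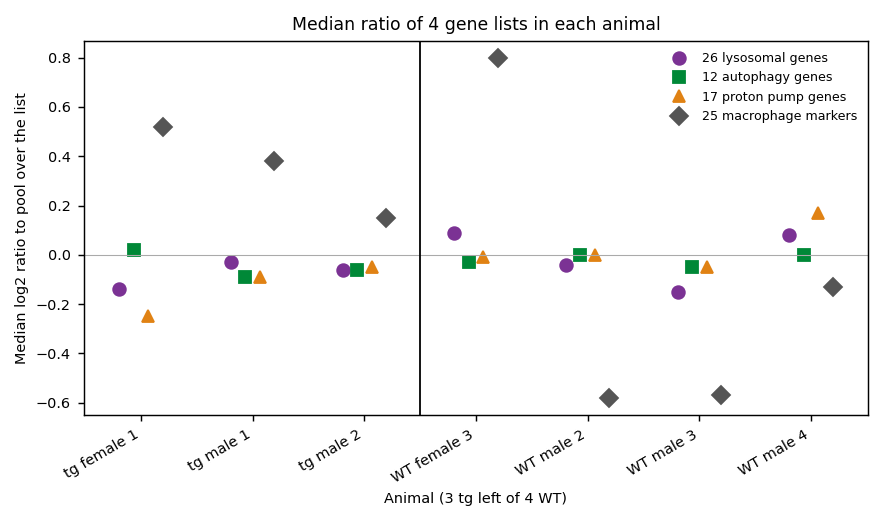
Median log2 ratio to the pool over each of 4 gene lists in each animal, 3 tg left of 4 WT; points of 1 animal are shifted sideways to keep them apart. The lysosomal and autophagy medians stay between -0.15 and 0.09, and the macrophage markers run from -0.58 to 0.80.

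Of 61 further lysosomal genes 52 were measured, 26 positive and 26 negative with a median of 0.00, and 4 stood at an unadjusted p under 0.05 (in the males alone 22 positive and 30 negative, median -0.02, and 5). Of the 4 with all animals, Dnase2a, the acid DNase of lysosomes, had the largest difference at -0.92 ± 0.21 SE (adjusted p = 0.576). The largest in the whole list was 0.98 in size. Dnase2a read -1.93, -0.99 and -0.53 in the tg animals, against -1.04, 0.22, 0.59 and -0.27 in the WT animals, with the WT female inside the tg range. Both females lay below all males in this gene, and its difference between the sexes was larger (female minus male -1.19 ± 0.23 SE, limma, adjusted p = 0.12). Laptm4a, a lysosomal transmembrane protein, differed by 0.43 ± 0.13 SE, Naglu, a heparan sulfate glycosidase, by 0.28 ± 0.11 SE and Slc17a5, the sialic acid exporter, by -0.37 ± 0.13 SE. In Laptm4a and Naglu all 3 tg animals lay above the 4 WT animals. They were the 2 of 52 genes in that order, against 3.17% of all features. In 2 other genes of the list all tg animals lay below, against 2.84%. Between the sexes 1 gene of this list was called, Arsa, the arylsulfatase that degrades sulfatide. Arsa read -1.44 and -2.15 in the females (tg and WT), and in the males -0.14 and 0.48 (tg) and 0.32, 0.53 and 0.00 (WT). Both females lay far below the 5 males, with a difference of -2.04 ± 0.25 SE (4.12-fold lower in females, limma, adjusted p = 0.0235), while tg minus WT was 0.13 ± 0.23 SE.

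Of 43 further autophagy genes 33 were measured, 18 positive and 15 negative with a median of 0.02 (in the males alone 16 and 17, median -0.02, with 1 at an unadjusted p under 0.05). Only Nbr1, a cargo receptor related to Sqstm1 (0.23 ± 0.09 SE), and Atg4c, a protease that processes Atg8 proteins (0.57 ± 0.23 SE), stood at an unadjusted p under 0.05 (adjusted p = 0.721 for both). Vps39, of the complex that tethers lysosomes, differed by 0.33 ± 0.15 SE and the mitophagy receptor Bnip3 by -0.43 ± 0.23 SE (-0.13 ± 0.18 SE in the males alone). In Nbr1 the tg animals read 0.30, 0.25 and 0.15, against -0.04, 0.12, -0.01 and -0.06 in the WT animals, with no overlap. The tg animals lay above all WT animals in Nbr1 and Atg4c (2 of 33 genes, against 3.17% of all features). They lay below all WT animals in 1 gene of the list (2.84% of features). Of 30 genes for the TFEB family and mTORC1 control 27 were measured, 13 positive and 14 negative with a median of -0.02 (in the males alone 14 and 13, median 0.02, with 0 at an unadjusted p under 0.05). Ppargc1a, a coactivator of oxidative metabolism, differed by 0.46 ± 0.14 SE, with 1.09 in the tg female and 0.18 and -0.04 in tg males 1 and 2, against 0.30 in the WT female and -0.38 to -0.07 in the WT males. Rragc, a GTPase that recruits mTORC1 to lysosomes, differed by -0.25 ± 0.11 SE, the calcineurin subunit Ppp3cb by -0.38 ± 0.17 SE and the kinase Mtor by 0.24 ± 0.12 SE, with adjusted p of 0.677 to 0.746 for these 4 genes. Among males they were 0.32 for Ppargc1a, -0.15 for Rragc, -0.24 for Ppp3cb and 0.18 for Mtor.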

How the data were processed

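As deposited, the values are log10 ratios, 1 for each of 23574 probes on each array, with 0 missing and limits at -2 and 2. Per the labels' protocols, spin column RNA was treated with DNase and amplified with aminoallyl labelling, and the series used dye swaps. Image software, background correction, normalization and the way swapped arrays were combined are not given in the sources used here. Without scanner intensities no filter on dim probes was possible. Multiplying the authors' log10 ratios by 3.32 put them on the log2 scale. Probes that share 1 symbol were averaged, and every other probe stayed a feature of its own (17824 probes had 1 symbol, 50 several and 5700 none). All 38 members were found by gene number in NCBI's table for GRCm38.p6, with 0 symbols changed.

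Differences were fitted with limma 3.58.1 (R 4.3.3), lmFit and eBayes, with genotype and sex as terms over all 7 arrays, adjusted by Benjamini-Hochberg over 22218 features and called at 0.05. P-values set a difference against the spread between these animals, which eBayes draws toward the spread of all features. The fit was tested on simulated data. The members and lists were chosen with earlier results of these data known, so lists are described by counts and medians. Named were all members, Zfp90, Kdm5d and, of each further list, the members past the threshold or the 4 with the smallest p; Arsa, called between the sexes, was added after its values were seen. Alternatives were no sex (or no genotype) term, males alone, median centring, quantile normalization, robust eBayes, single probes, named genes alone and leaving out each animal.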

Additional observations from a re-analysis of the deposited data

Results flagged for a closer look

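A sample far from the others of its group was looked for among the 4 WT animals in each of the 38 members and Zfp90, by Dixon's test at a critical value of 0.829, which chance passes in about 1 group of 20. It was met in 2 of 39 genes. Ctsl read 0.03 in the WT female, with the 3 WT males between -0.13 and -0.11, a gap of 0.898 of the group's range. Map1lc3a read 0.15 in WT male 3, with the other WT animals between -0.04 and -0.02, a gap of 0.883 of the range.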

How the results depend on the processing

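No member passed the threshold, for tg against WT, in any of 14 alternatives (0 of 532 values; the smallest adjusted p was 0.181, without WT male 3), and 0 passed between the sexes. The sign of the genotype difference held in all 14 for 24 members (14 negative, 10 positive; 16 of 26 lysosomal, 8 of 12 autophagy) and turned in 39 of the 532 values. Robust eBayes, named genes alone and single probes (each member has 1 probe) cannot change a member's fitted difference. Males alone and leaving out either female give the same genotype difference. The 14 are therefore not 14 separate checks of the sign. Features called for tg against WT were 0, and 7 in the 5 males alone. The autophagy median was -0.064, and -0.118 in the males alone. With 1 animal left out, features called ran from 0 to 7, the lysosomal median from -0.127 to 0.047 (-0.008 with all animals) and the autophagy median from -0.118 to -0.036. The lysosomal median, near 0, therefore has no settled sign: it was lowest without WT male 3. Without either female the fit is that of the males. Features called between the sexes were 78, 47 after quantile normalization, and 36 to 254 with 1 animal left out (36 without the WT female, 39 without WT male 2, 48 without WT male 4, 45 without tg male 2, 254 without the tg female). The female minus male median ran from -0.129 to 0.121 for lysosomal genes (0.067 with all animals; -0.129 without the WT female) and from -0.094 to 0.017 for autophagy genes (-0.054 with all animals; 0.017 without the WT female). The causes were not tested. No paired analysis was made, because the sample titles name no pairs of animals. With no intensities, signal over background is unknown.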

Other observations

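Marker lists of other cell types gave 0 calls between genotypes. The median tg minus WT difference was 0.01 for 12 endothelial markers (Emcn -0.42 ± 0.15 SE, Lyve1 0.28 ± 0.21 SE, Kdr -0.33 ± 0.30 SE, Stab2 0.17 ± 0.16 SE). It was 0.06 for 11 stellate cell markers (Pdgfrb 0.38 ± 0.11 SE, Reln -0.32 ± 0.12 SE, Col1a1 0.28 ± 0.11 SE, Tagln 0.16 ± 0.09 SE). For 8 neutrophil markers it was -0.01 (Elane 0.16 ± 0.10 SE, Ltf -0.09 ± 0.10 SE, S100a8 -0.17 ± 0.19 SE, S100a9 -0.27 ± 0.42 SE). For 11 lymphocyte markers it was 0.02 (Klrb1c 0.40 ± 0.12 SE, Gzma 0.31 ± 0.18 SE, Cd4 -0.18 ± 0.11 SE, Cd79b 0.16 ± 0.12 SE), and Klrb1c, a receptor of natural killer cells, was higher in females than in males by 0.96 ± 0.13 SE (limma, adjusted p = 0.0413). For 5 bile duct markers it was 0.09 (Krt7 0.21 ± 0.13 SE, Sox9 0.17 ± 0.12 SE, Krt19 0.09 ± 0.13 SE, Epcam -0.04 ± 0.19 SE). In the males alone the medians were 0.08 for stellate cell, 0.09 for neutrophil, -0.01 for lymphocyte and 0.11 for bile duct markers, and the endothelial markers split 6 positive to 6 negative. The differences of S100a8 (0.10 ± 0.15 SE), S100a9 (0.40 ± 0.21 SE), Lyve1 (-0.02 ± 0.16 SE), Krt19 (-0.05 ± 0.13 SE) and Epcam (0.25 ± 0.12 SE) turned in sign there.

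Of the hepatocyte markers, Cps1, the first enzyme of the urea cycle, read 0.80, 0.45 and 0.27 in the tg animals, against -0.01, -0.07, -0.12 and -0.24 in the WT animals. Ass1, a later enzyme of that cycle, read 0.59, 0.49 and 0.66 in the tg animals, against 0.01, 0.10, -0.38 and 0.19 in the WT animals. The drug-metabolizing Cyp2e1 read -0.73, -0.31 and -0.37 in the tg animals, against 0.04, 0.11, -0.06 and 0.04 in the WT animals. Apob, the structural protein of very low density lipoprotein, read -0.76, -0.23 and -0.10 in the tg animals, against 0.14, 0.14, 0.10 and -0.01 in the WT animals. These 4 are the markers with the smallest p of the 16 measured, which favours genes whose genotypes do not overlap. They are the 4 of 16 markers without overlap, against 6.01% of all features, and none passed in limma (adjusted p of 0.475 to 0.704).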
